A study of Mus musculus with 4 samples.

Results

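This section describes 10 genes of Toll-like receptor (TLR) sensing in primary mouse liver sinusoidal endothelial cells (LSECs): the receptors Tlr1, Tlr2, Tlr3, Tlr4, Tlr6, Tlr7 and Tlr9, the adaptors Myd88 and Ticam1, and the co-receptor Cd14. They were chosen by symbol, and all 10 were found among the 18373 genes of the expression table. Bulk RNA-seq was made from LSECs of 8-week-old Balb/c mice, isolated on a Nycodenz gradient with CD146 magnetic beads, cultured for 24 h and transfected for 48 h. The 2 NC libraries received a control siRNA, and the 2 libraries labelled siAirn received siRNA against Airn, a long non-coding RNA of the imprinted Igf2r locus. Nothing else differed between the groups by their labels, and the question was how a lower Airn level changes the LSEC transcriptome. Which Airn siRNA was used is not settled, since the labels of both libraries carry the name of 1 siRNA while the methods describe 2 separate ones.

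The libraries held 17308382, 18371959, 17766188 and 17545853 estimated counts (NC replicates 1 and 2, then siAirn replicates 1 and 2), and levels are given as CPM, the count scaled to library size after normalization, or as FPKM, which also divides by gene length. Airn was too low to check the labels: its counts were 7 and 3 in NC and 11 and 9 in the libraries labelled siAirn, so it was not lower in the latter, and siAirn below stands for the libraries so labelled. Endothelial genes were abundant, as with the junction gene Cdh5 (2473 ± 214 CPM in NC) and the scavenger receptor Stab1 (654 ± 5.18 CPM in NC; SD, n = 2). The titles call the 2 libraries of each group biological replicates and do not say whether separate animals or separate cultures gave them. The p-values therefore set the group difference against the spread between these libraries only, which is estimated for each gene with the help of the other genes.

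TLRs are pattern recognition receptors of innate immunity. Tlr2 pairs with Tlr1 or Tlr6 to bind bacterial lipopeptides at the cell surface, and Tlr4 binds lipopolysaccharide, which Cd14 delivers to it. Tlr3 reads double-stranded RNA, Tlr7 single-stranded RNA and Tlr9 CpG-rich DNA inside endosomes. All of these receptors except Tlr3 signal through Myd88, while Tlr3 and internalized Tlr4 use Ticam1 (TRIF), the route to type I interferon. LSECs line the sinusoids, where blood from the gut carries bacterial products, and are known to clear such products and to express several TLRs.

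Tlr1 and Tlr6 are close paralogs, and the reads of one could be counted for the other. Of the 50-base windows of the longest GENCODE transcript, the read length here, 15.3% in Tlr1 and 12.6% in Tlr6 occurred in another gene, for Tlr1 in Tlr6 and for Tlr6 in Tlr1 and Ctsq. The longest run identical in both was 229 bases of coding sequence (transcript bases 1939 to 2167 in Tlr1, 1652 to 1880 in Tlr6). The stretches below show the last 40 bases before this run and its first 100 bases, with the 1 base that differs in capitals, because a read that lies wholly in the shared run cannot be assigned.
Tlr1: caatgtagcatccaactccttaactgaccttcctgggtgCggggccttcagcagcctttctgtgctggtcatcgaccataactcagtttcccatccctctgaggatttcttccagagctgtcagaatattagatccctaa
Tlr6: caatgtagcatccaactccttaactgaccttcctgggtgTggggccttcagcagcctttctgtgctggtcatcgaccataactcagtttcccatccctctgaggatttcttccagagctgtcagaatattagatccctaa

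Promoters of 300 bases (250 before to 50 after the start) were taken from RefSeq (GRCm38.p6) for the 7 genes found in the promoter set used here. No entry for Tlr4, Tlr7 and Cd14 was found in that set. Tlr2, which fell, is shown beside Tlr3 and Myd88, among the most abundant members. Capitals mark matches to the NF-κB motif (κB) in Tlr2 and Tlr3 and to the interferon-stimulated response element (ISRE, GAAANNGAAA) in Myd88, each searched on both strands.
Tlr2 (chr3:83841559-83841858, minus strand): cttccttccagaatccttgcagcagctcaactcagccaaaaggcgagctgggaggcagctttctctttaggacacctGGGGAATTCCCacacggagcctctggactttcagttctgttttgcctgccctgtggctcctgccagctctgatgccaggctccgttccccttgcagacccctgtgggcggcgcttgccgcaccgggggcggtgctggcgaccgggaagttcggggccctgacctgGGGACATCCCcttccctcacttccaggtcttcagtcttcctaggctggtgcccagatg
Tlr3 (chr8:45410331-45410630, minus strand): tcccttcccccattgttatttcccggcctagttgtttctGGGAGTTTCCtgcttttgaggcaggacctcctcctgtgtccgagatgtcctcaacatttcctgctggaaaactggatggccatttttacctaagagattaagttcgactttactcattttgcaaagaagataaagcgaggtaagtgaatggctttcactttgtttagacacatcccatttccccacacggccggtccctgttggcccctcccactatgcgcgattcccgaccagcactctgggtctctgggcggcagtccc
Myd88 (chr9:119339969-119340268, minus strand): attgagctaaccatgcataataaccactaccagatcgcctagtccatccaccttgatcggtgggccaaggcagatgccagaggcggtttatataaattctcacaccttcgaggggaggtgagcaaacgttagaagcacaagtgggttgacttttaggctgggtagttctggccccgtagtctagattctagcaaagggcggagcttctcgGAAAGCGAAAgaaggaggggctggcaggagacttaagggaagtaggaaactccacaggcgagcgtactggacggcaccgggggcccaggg

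The κB motif was found in 8.46% of the 32851 RefSeq promoters and in 2 of the 7 members, Tlr2 and Tlr3. Tlr2 held 3 matches, of which 2 overlapped within 1 stretch that begins 173 bases before the start, and the other begins 8 bases before it. In Tlr3 the match begins 211 bases before the start. The ISRE was found in 3.44% of all promoters and in Myd88 and Tlr6, and the interferon-gamma activated site (GAS, TTCNNNGAA) in 8.30% of all promoters and in Myd88, Tlr1 and Tlr6. Shares are per promoter, while a member counts once if any of its promoters matched; Tlr6 has its ISRE and its GAS in different promoters. In Myd88 the GAS overlaps the ISRE, which begins 40 bases before the start. These matches describe sequence only.

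Myd88 had the highest FPKM of the 10 genes in both groups, at 28.6 ± 0.0566 in NC and 29.2 ± 1.58 in the libraries labelled siAirn (SD, n = 2). In NC it was followed by Cd14 (23.0 ± 3.90 FPKM), Tlr3 (15.5 ± 1.77), Tlr2 (9.78 ± 0.417), Ticam1 (9.69 ± 0.212) and Tlr4 (7.06 ± 0.728). Tlr6 was lower at 2.64 ± 0.530 FPKM, and Tlr1 (1.04 ± 0.106 FPKM), Tlr7 (0.62 ± 0.226 FPKM) and Tlr9 (0.075 ± 0.0212 FPKM) were lowest. Among neighbours in this NC order, only Tlr2 and Ticam1 overlapped between replicates.

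In the libraries labelled siAirn, the FPKM order was Myd88, Tlr3 (16.5 ± 0.735), Cd14 (14.2 ± 1.39), Ticam1 (8.96 ± 0.141), Tlr4 (7.83 ± 0.509), Tlr2 (7.43 ± 0.0424), Tlr6 (3.61 ± 0.219), Tlr1 (0.83 ± 0.354), Tlr7 (0.655 ± 0.0495) and Tlr9 (0.045 ± 0.0354). Cd14 thus passed from the second to the third place and Tlr2 from the fourth to the sixth. Tlr1 and Tlr7 overlapped here, and the replicate values of Tlr4 and Tlr2 came within 0.01 FPKM of each other (7.47 and 7.46). The place of Tlr4 depends on its length, since the deposited FPKM imply 7770 bases for it, 1.91 times its longest GENCODE transcript. Per kilobase of GENCODE transcript, Tlr4 had 13.6 CPM in NC and 14.7 CPM in siAirn, and its replicates overlapped those of Tlr3 in both groups and those of Cd14 in siAirn. On this scale Cd14 went from 21.9 CPM per kb in NC, overlapping Myd88 (21.1 CPM per kb), to 13.2 CPM per kb in siAirn, rank 1 to rank 4.

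**Figure D1:**
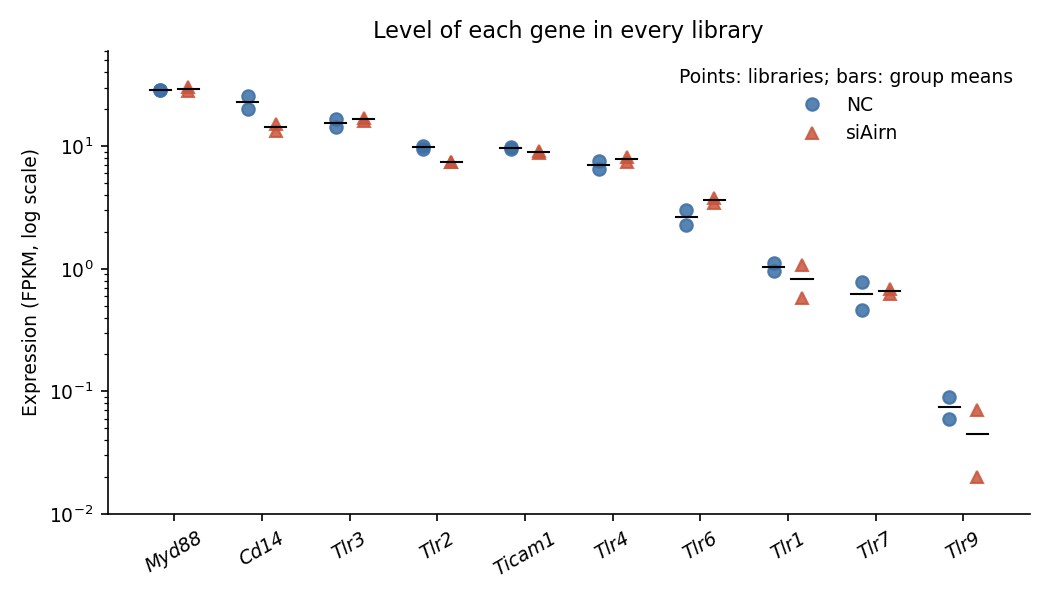
Level of the 10 genes in each library in FPKM on a log axis, ordered by the NC mean; circles are NC libraries, triangles are libraries labelled siAirn and bars are group means of 2. The genes run from Myd88 near 28.6 FPKM to Tlr9 at 0.075 FPKM in NC. The groups do not overlap for Cd14, Tlr2 and Ticam1, lower in siAirn, and for Tlr6, higher in siAirn.

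Of the 10 genes, 9 passed the filter on low counts, all but Tlr9, and 2 of these, Cd14 and Tlr2, had an adjusted p under 0.05 (edgeR's quasi-likelihood test, Benjamini-Hochberg over 13628 genes), against 16.8% of all genes tested. Both were lower in the libraries labelled siAirn, against 8.56% of all genes that were called lower, and none was called higher, against 8.27% of all genes. The groups did not overlap for 4 of the 9, Cd14, Tlr2 and Ticam1 lower and Tlr6 higher, against 62.7% of all genes. The median log2 fold change was -0.01 over the 9 genes and 0.00 over all genes tested (0.001256 before rounding). With so few genes, 2 calls do not set the members apart from all genes.

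Cd14, the co-receptor that binds lipopolysaccharide and lipopeptides, changed most of the 9. It had 31.6 and 40.4 CPM in NC and 19.97 and 23.2 CPM in the libraries labelled siAirn, from 542, 730, 361 and 411 counts. Both siAirn values lay below both NC values, although the NC replicates themselves differed 1.28-fold. Cd14 fell by 0.74 on the log2 scale (SE 0.139, adjusted p = 0.0182), to 0.5997 times the NC level, and 2.56% of all genes tested had a change as low. It also passed the threshold of the study's methods, a fold change over 1.4 with an unadjusted p under 0.05, as did 9.96% of all genes tested. Without NC replicate 1 or 2 the adjusted p was 0.0653 or 0.123, with log2 fold changes of -0.90 and -0.55.

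Tlr2, the shared partner of Tlr1 and Tlr6, had 26.6 and 28.3 CPM in NC and 20.03 and 20.5 CPM in the libraries labelled siAirn (455, 511, 362 and 362 counts). The replicates of each group lay close together, and the groups did not overlap. Tlr2 fell by 0.44 on the log2 scale (SE 0.0900, adjusted p = 0.0229), to 0.739 times the NC level. This is a 1.35-fold difference, under the 1.4-fold threshold of the study, and 8.53% of all genes tested had a change as low. Without NC replicate 1 or 2 the adjusted p of Tlr2 was 0.0944 or 0.146, with log2 fold changes of -0.48 and -0.39.

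The partners of Tlr2 did not pass the test. Tlr1 had 2.51 and 3.04 CPM in NC and 2.77 and 1.53 CPM in siAirn, so that 1 siAirn library lay between the NC libraries and the other below them (log2 fold change -0.37, SE 0.344, adjusted p = 0.489). Tlr6 had 9.34 and 7.74 CPM in NC and 10.3 and 10.97 CPM in siAirn, both siAirn values above both NC values (log2 fold change 0.32, SE 0.147, adjusted p = 0.173). Part of either value could be reads of the other paralog.

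Tlr4 was measured at 59.5 and 51.6 CPM in NC and 62.5 and 57.6 CPM in the libraries labelled siAirn. The groups overlapped, with a log2 fold change of 0.11 (SE 0.0903, adjusted p = 0.421) in contrast to the lower value of its co-receptor Cd14. The difference between the 2 changes was not tested.

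Among the endosomal receptors, Tlr3 had 71.0 and 61.0 CPM in NC and 66.1 and 70.7 CPM in siAirn, and the siAirn libraries lay between those of NC (log2 fold change 0.05, SE 0.0895, adjusted p = 0.722). Tlr7 was low, with 30, 53, 45 and 41 counts, and the siAirn values again lay between the NC values (log2 fold change 0.03, SE 0.323, adjusted p = 0.954). Its standard error leaves large changes in either direction undetectable at this depth. Tlr9, at 5 and 4 counts in the NC libraries against 4 and 1 in siAirn, was not tested. A count of 0 allows up to 3 counts, which are 0.166 to 0.175 CPM in these libraries for counting error alone. Tlr9 lay near that limit, at 0.292 and 0.221 CPM in NC and 0.221 and 0.0565 CPM in siAirn. Its counts did not pass the filter, so no difference is given.

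The adaptors differed little. Myd88 had 51.6 and 51.9 CPM in NC and 49.0 and 53.6 CPM in siAirn, so the siAirn libraries lay on either side of NC (log2 fold change -0.01, SE 0.0752, adjusted p = 0.926). Ticam1 had 27.0 and 26.3 CPM in NC and 24.1 and 23.8 CPM in siAirn, both below NC, without passing the test (log2 fold change -0.15, SE 0.0850, adjusted p = 0.253). In Myd88, 7.26% of the 50-base windows lie antisense to Acaa1a, and in Tlr3 1.56% lie antisense to Gm45542. Whether the counting used strand is not given in the sources used here, and such reads could then not be told apart.

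**Figure D2:**
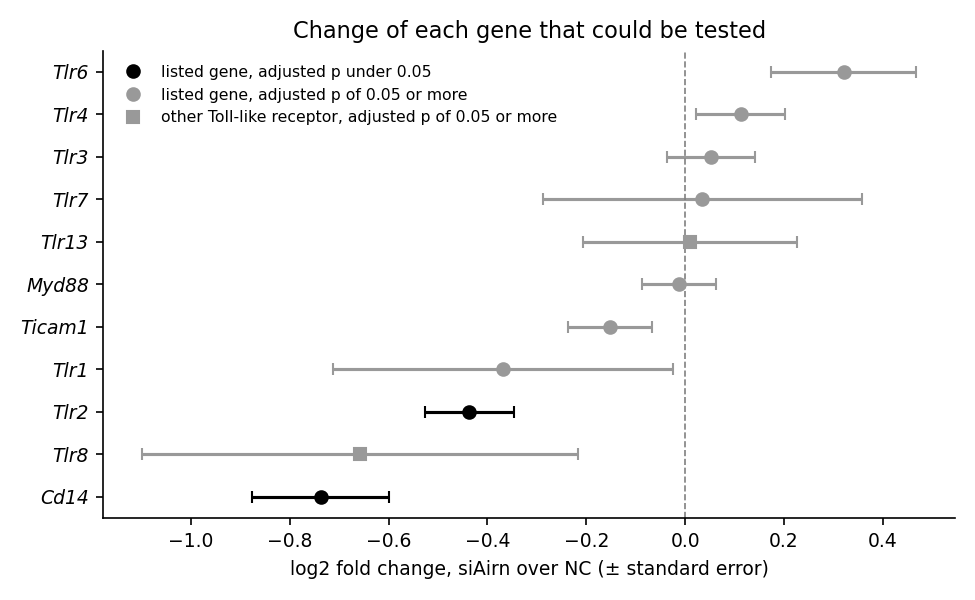
Log2 fold change of siAirn over NC with its standard error for the 9 members tested (circles) and Tlr8 and Tlr13 (squares), black where the adjusted p is under 0.05. Cd14 at -0.74 and Tlr2 at -0.44 are the genes in black; Tlr8 lies at -0.66 with a standard error of 0.441.

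The remaining mouse Toll-like receptors were low. Tlr13, a sensor of bacterial ribosomal RNA, had 82, 115, 113 and 88 counts, with overlapping groups (log2 fold change 0.01, SE 0.217, adjusted p = 0.981). Tlr8, an endosomal RNA sensor, was counted 26 and 30 times in NC against 25 and 11 times in siAirn (adjusted p = 0.336). The flagellin receptor Tlr5 was counted 3 and 1 times in NC against 7 and 13 times in siAirn, Tlr12 had 4, 4, 4 and 7 counts, and Tlr11 had no count in either NC library and 1 count in each siAirn library. These 3 did not pass the filter and were not tested.

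The co-receptors and chaperones that load ligands or bring TLRs to endosomes were listed together with lysosomal proteases. Of the 14 genes of this list, 6 fell and none rose, against 8.56% and 8.27% of all genes tested. The median log2 fold change was -0.35. Lbp, which hands lipopolysaccharide to Cd14, went from 5.63 ± 0.948 CPM in NC to 2.58 ± 0.356 CPM (log2 fold change -1.13, adjusted p = 0.023). Among the 6 were the lysosomal proteases Ctsb, Lgmn and Ctsl, which can cleave endosomal TLRs. Ctsb, the most abundant of the list, went from 2441 ± 158 to 1273 ± 1.85 CPM (-0.94, adjusted p = 0.00284). Lgmn went from 317 ± 27.1 to 224 ± 10.6 CPM (-0.50, adjusted p = 0.012), and Ctsl had log2 fold change -0.35 (adjusted p = 0.0122). Unc93b1, the chaperone that endosomal TLRs need, went from 61.4 ± 2.19 to 48.0 ± 0.292 CPM (-0.35, adjusted p = 0.0196). Ly96, which encodes the lipopolysaccharide-binding partner of Tlr4, had log2 fold change -0.35 and adjusted p = 0.0687; it was chosen after its values were seen. Without NC replicate 1 or 2 the list had 1 or 0 calls. Macrophage markers (median -0.70) and LSEC markers (median -0.57), described further on, were lower as well, and their part in this list was not tested.

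The signalling genes below the adaptors gave 1 gene higher and 2 lower of 22 tested, with a median of -0.11. Over all genes, 16.8% were called, and nothing is read from the 3 calls about the list. The kinase Chuk (IKKα) rose from 58.5 ± 3.25 to 80.01 ± 1.30 CPM (log2 fold change 0.45, adjusted p = 0.0115). Irf7, the interferon regulatory factor that acts below Tlr7 and Tlr9 and the most abundant gene of the list, fell from 1032 ± 16.2 to 645 ± 12.5 CPM (-0.68, adjusted p = 0.00496). Irf3, which acts below Ticam1, fell from 46.9 ± 0.932 to 38.3 ± 1.94 CPM (-0.29, adjusted p = 0.0442). Leaving out either NC library left 0 calls in this list.

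Of the 11 inhibitors tested, 1 rose and 2 fell, with a median of 0.04, against 8.27% higher and 8.56% lower among all genes. Sigirr, a receptor that dampens IL-1 and TLR signals, fell from 8.72 ± 0.294 to 5.09 ± 0.236 CPM (log2 fold change -0.78, adjusted p = 0.0202), and Trafd1 fell by 0.41 on the log2 scale (adjusted p = 0.0332). The deubiquitinase Tnfaip3 (A20) rose by 0.33 on the log2 scale (adjusted p = 0.0295); Tnip1, its binding partner, was the most abundant inhibitor at 193 CPM over the libraries and gave adjusted p = 0.227. Of the IL-1 receptors that share Myd88 with the TLRs and their ligands and regulators, 1 of 5 genes tested rose (3 receptor genes, the cytokine Il33 and the antagonist Il1rn), a single call in so short a list against 8.27% of all genes: the co-receptor Il1rap, from 34.7 ± 4.21 to 50.1 ± 4.49 CPM (0.53, adjusted p = 0.0228). Il1r1, the most abundant of this list, had log2 fold change 0.25 and adjusted p = 0.0753. Both lists had 0 calls without either NC library, the inhibitors had 1 call without siAirn replicate 2, and the IL-1 receptor family had 2 calls without either siAirn library. With a correction for GC content and length, no gene of either list was called.

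Among target genes and sensors, the calls were too few to set any list apart from the 16.8% of all genes called, and are given gene by gene. Of 16 NF-κB targets, 3 rose and 1 fell, with a median of 0.11. Ptgs2, the inducible cyclooxygenase, rose from 13.2 ± 1.43 to 22.9 ± 0.676 CPM (log2 fold change 0.79, adjusted p = 0.00946), Nfkbiz by 0.44 (adjusted p = 0.0465) and the adhesion molecule Vcam1 by 0.35 (adjusted p = 0.0165). The chemokine Ccl2, the most abundant of these targets, fell from 762 ± 28.4 to 585 ± 23.6 CPM (-0.38, adjusted p = 0.0134). Of 11 interferon targets tested, 2 fell: Ifit3 (-0.74, adjusted p = 0.0138) and Isg15 (-0.33, adjusted p = 0.0182). The most abundant of them, Oasl2, had log2 fold change 0.10 and adjusted p = 0.426. Of 10 cytosolic nucleic acid sensors, which work apart from the TLRs, 2 fell: Zbp1 (-0.54, adjusted p = 0.0127) and Tmem173, which encodes STING (-0.31, adjusted p = 0.0359). Ddx58 (RIG-I), the most abundant sensor, had log2 fold change 0.02 and adjusted p = 0.844. Without either NC library, these 3 lists had 0 calls. Without siAirn replicate 1 there were 8 calls among the NF-κB targets, and without either siAirn library 1 call among the sensors. Corrected for GC content and length, there were 2 calls among the NF-κB targets, 1 among the interferon targets and 1 among the sensors.

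**Figure D3:**
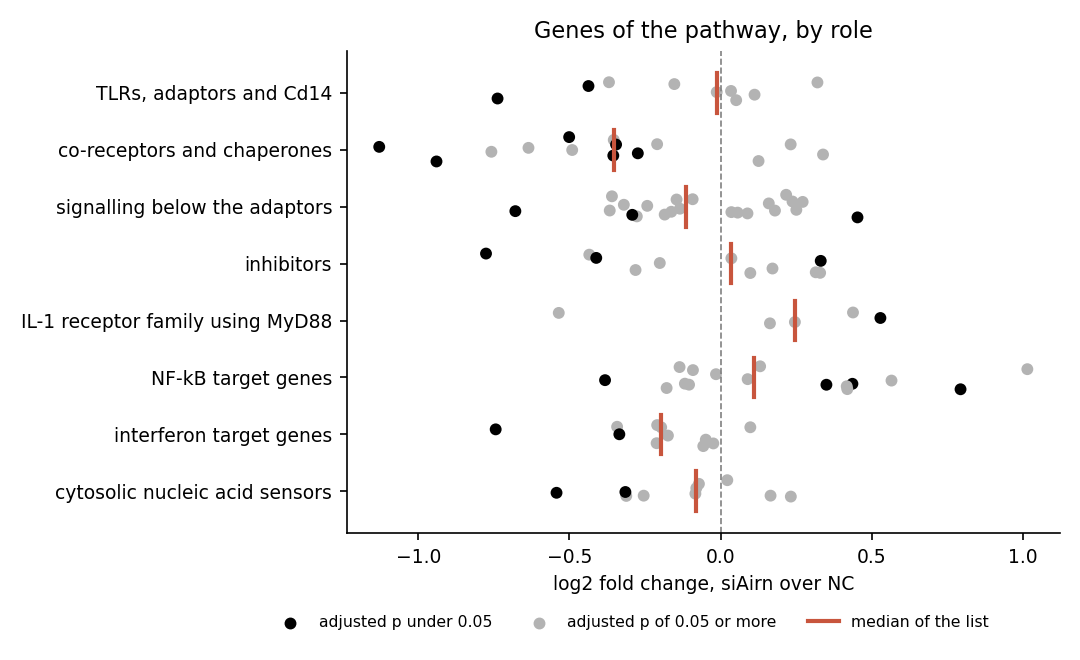
Log2 fold change of siAirn over NC for each gene tested, by role in the pathway; points are genes, black where the adjusted p is under 0.05, and the vertical bar is the median of each list. The list of co-receptors and chaperones, which includes lysosomal proteases, has the lowest median, -0.35, and the TLRs, adaptors and Cd14 have a median of -0.01.

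Cd14 and Tlr2 are expressed in both macrophages and LSECs, and marker genes of both cell types were also lower in the libraries labelled siAirn. Relative to the NC mean, siAirn replicates 1 and 2 gave 0.555 and 0.646 for Cd14 and 0.731 and 0.747 for Tlr2. The summed markers went the other way between these replicates, at 0.696 and 0.578 for macrophages and 0.707 and 0.644 for LSECs. Between the NC replicates, both genes and both sums were higher in replicate 2. Of 18 Kupffer cell and macrophage markers tested of 20 listed, 11 fell and none rose (8.56% and 8.27% of all genes), and all 18 had log2 fold changes below 0 (median -0.70). Their summed level was 348 to 423 CPM in NC and 223 to 268 CPM in siAirn. The largest part of this sum was Lyz2, at 124.9 CPM in NC. Among the markers, Clec4f, a lectin of Kupffer cells, went from 4.52 ± 0.455 to 1.68 ± 0.370 CPM (-1.43, adjusted p = 0.0176). Cd5l fell by 1.23 (adjusted p = 0.0471), Spi1 by 0.95 (adjusted p = 0.0138) and Tyrobp by 0.85 (adjusted p = 0.0251). Lyz2 was the most abundant and fell by 0.57 (adjusted p = 0.0203). The NC replicates of Cd5l differed 2.09-fold (16.6 and 34.8 CPM), while those of Clec4f, Spi1, Tyrobp and Lyz2 lay closer together. The resident Kupffer cell marker Timd4 was near 0 (2, 0, 3 and 0 counts), as was Cd163 (2, 4, 4 and 3 counts); these markers were chosen after their values were seen. Without NC replicate 1 or 2 no macrophage marker was called, and without siAirn replicate 2 there were 6 calls. With the correction for GC content and length, 3 were called, all lower.

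Endothelial markers were lower too, with 10 of 12 LSEC markers (median -0.57) and 6 of 10 pan-endothelial markers (median -0.44) called lower and none higher, against 8.56% lower and 8.27% higher among all genes. The summed LSEC markers were at 4125 to 4172 CPM in NC and 2670 to 2933 CPM in siAirn, and the summed pan-endothelial markers at 9496 to 9974 and 6502 to 7383 CPM. Without NC replicate 1, 1 gene of each list was called, and without NC replicate 2 none. Calls in the other direction were seen in 4 of 14 stellate cell and fibroblast markers (summed 1771 to 2146 CPM in NC, 2069 to 2678 CPM in siAirn) and 2 of 10 hepatocyte markers (639 to 807 and 895 to 1163 CPM), against 8.27% of all genes called higher, and none of either list fell; 2 calls in so short a list do not set it apart. These counts became 0 without either NC library, 12 and 4 without siAirn replicate 1, and 2 and 1 without siAirn replicate 2. With the correction for GC content and length they were 3 and 1.

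The 5 neutrophil and monocyte markers tested gave no call with edgeR's quasi-likelihood test, none at an unadjusted p under 0.05, and none with DESeq2 or limma (summed 78.8 to 87.5 CPM in NC, 82.9 to 96.1 CPM in siAirn), and Plac8 was the most abundant at 71.9 ± 6.68 CPM in NC and 78.5 ± 12.1 CPM in siAirn (adjusted p = 0.482). Of 7 B cell and plasmacytoid dendritic cell markers, only Bst2, which is also an interferon target, passed and fell (-0.40, adjusted p = 0.0108). The summed list was at 1303 to 1324 CPM in NC and 1032 to 1045 CPM in siAirn. Most of this sum was Bst2 (866.5 CPM in NC) and Tcf4 (421.9 CPM in NC). Of the 7, 4 had log2 fold changes below 0. The other 3 lay above 0 without passing: Cd79b (2.11, adjusted p = 0.0535), Pax5 (0.86, adjusted p = 0.362) and Cd79a (0.22, adjusted p = 0.722). This list had 3 calls without siAirn replicate 1 and 0 without either NC library. Of the T cell and NK cell markers, only Cd3e could be tested (adjusted p = 0.0719; summed list 2.49 to 2.86 CPM in NC, 3.90 to 3.98 CPM in siAirn). In bulk RNA, fewer cells of a type and less RNA per cell cannot be told apart.

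Set against the summed macrophage markers, Cd14 was at 9.09% and 9.53% in NC and 7.44% and 10.4% in siAirn, and Tlr2 at 7.63% and 6.67% in NC and 7.46% and 9.19% in siAirn. Set against the summed LSEC markers, Cd14 was at 0.767% and 0.967% in NC and 0.681% and 0.870% in siAirn. Over the summed pan-endothelial markers, Cd14 was at 0.317% and 0.425% in NC and 0.270% and 0.357% in siAirn, and Tlr2 at 0.266% and 0.297% in NC and 0.271% and 0.315% in siAirn. On each of these scales the groups overlapped. The exception was Tlr2 over the LSEC markers, at 0.644% and 0.677% in NC and 0.683% and 0.766% in siAirn, with both siAirn values slightly above those of NC. The part of cell composition in the lower Cd14 and Tlr2 levels was not tested.

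**Figure D4:**
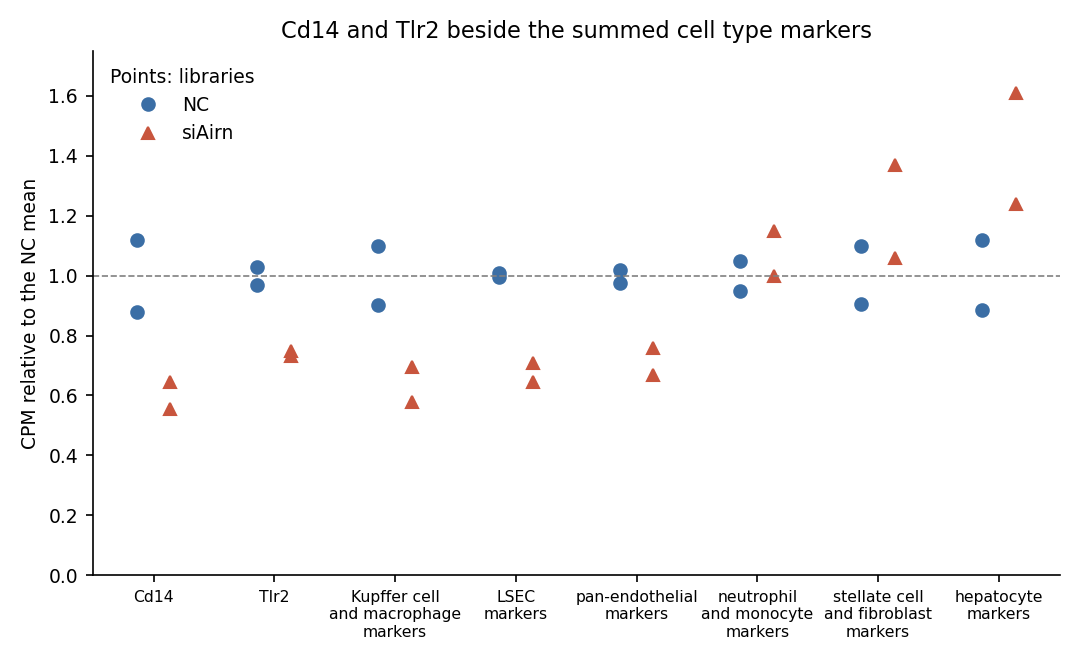
CPM of Cd14, of Tlr2 and of the summed markers of 6 cell types in each library, relative to the NC mean (dashed line at 1); circles are NC, triangles are siAirn. Cd14 (0.555 and 0.646), Tlr2 (0.731 and 0.747), macrophage (0.696 and 0.578) and LSEC (0.707 and 0.644) values of siAirn all lie below NC, while hepatocyte markers lie above (1.24 and 1.61).

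Cd14 and Tlr2 kept the direction of their difference under each of the 15 other settings of normalization, filter, test and libraries, from -0.90 to -0.55 for Cd14 and from -0.48 to -0.35 for Tlr2. Some of these settings could not have shown otherwise. The 1.4-fold threshold was applied to the same fit, so its fold changes are those of the main test. Leaving out 1 library could hardly reverse a sign, since the groups do not overlap for either gene. Settings that left out an NC library took both adjusted p-values above 0.05.

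**Figure D5:**
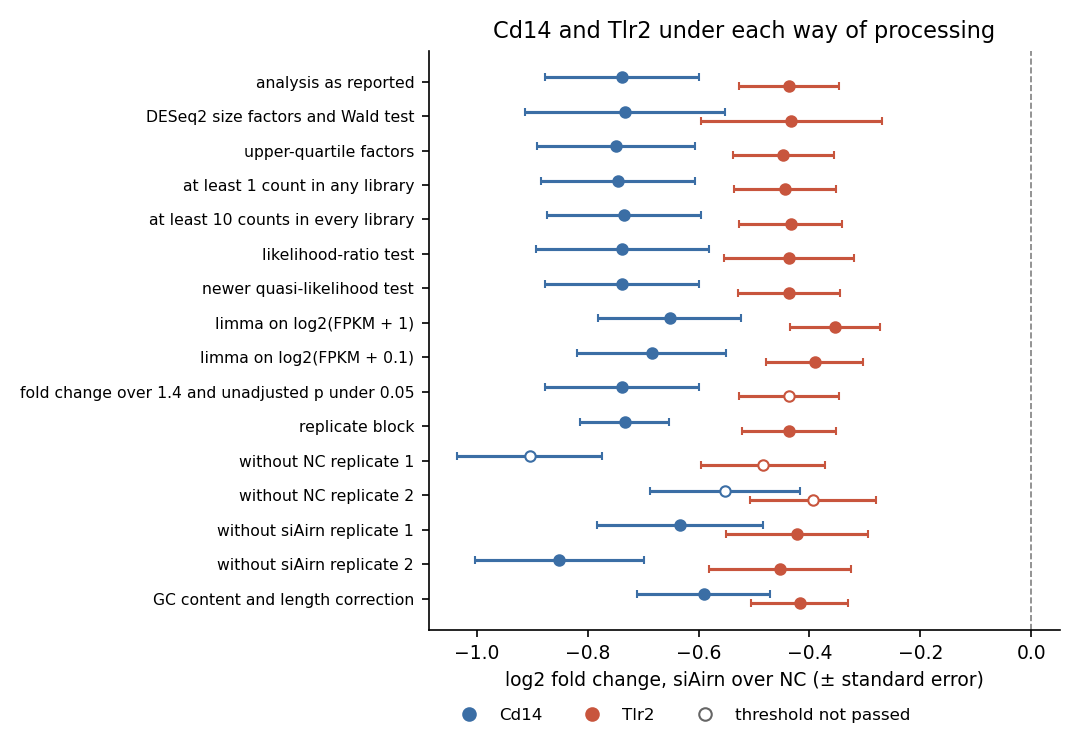
Log2 fold change of siAirn over NC with its standard error for Cd14 and Tlr2 under each way of processing; open circles did not pass that setting's threshold. Both genes stay below 0 throughout, and the open circles are the settings without an NC library and, for Tlr2, the 1.4-fold threshold.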

How the data were processed

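Primary LSECs were profiled in 4 single-end libraries of 50-base reads, 2 NC and 2 siAirn, grouped by their labels. The authors deposited 1 table with estimated counts, not normalized, of which 76.5% to 76.8% are whole numbers, and with values whose unit the header does not name. These deposited values were read as FPKM, since they scale with count, length and library total. The submitters' processing notes name BWA, Bowtie2 and RSEM without versions and a human genome build, although the gene IDs are of mouse; strand use is not given in the sources used here. The group means and comparison columns (fold changes and p-values) of the authors were not used.

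After rounding, the counts were tested with edgeR 4.0.16 (R 4.3.3): TMM factors (0.985 to 1.02), filterByExpr, and glmQLFit and glmQLFTest without covariates, with p-values adjusted by Benjamini-Hochberg over 13628 genes. At adjusted p under 0.05, 2294 genes were called (4631 at an unadjusted p under 0.05). Library totals ran from 17308382 to 18371959, and limits cover counting error only. Replicates of each group differed beyond sampling noise (chi-square per degree of freedom 6.43 in NC and 8.57 in siAirn).

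The members and gene lists were chosen with earlier results of these data known. Named are the members, the other Tlr genes, Airn and, of each list, the called genes with the 4 largest changes and the gene with the highest mean CPM. Ly96, Ctsl, Timd4, Cd163, Tcf4, Cd79b, Pax5 and Cd79a were named after their values were seen. Of the LSEC, pan-endothelial, stellate and hepatocyte markers, only counts and sums are given beside Cdh5 and Stab1. GENCODE M21 (GRCm38) gave transcripts, GC content and length, and RefSeq (GRCm38.p6) the promoters. Alternatives used DESeq2 1.42.0, limma 3.58.1 on log2(FPKM + 1) and log2(FPKM + 0.1) and the other settings named in the closing section. Tested on simulated data for siAirn against NC with 13542 genes, the test called 77 of 100 genes changed 1.5-fold, 96 of 100 changed 2-fold, and 10 unchanged genes. The simulation gave all genes the same spread beyond counting error and changed only genes above a minimum mean NC count. These numbers therefore do not cover genes with a larger spread or low counts.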

Additional observations from a re-analysis of the deposited data

How the results depend on the processing

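Cd14 and Tlr2 stayed the called members, both lower, under DESeq2, upper-quartile factors, both other count filters, the likelihood-ratio and newer quasi-likelihood tests (the latter chosen after seeing the data), limma, the replicate block, the GC content and length correction and without either siAirn library. The number of members called was 1 (Cd14) at a fold change over 1.4 with an unadjusted p under 0.05, and 0 to 2 when 1 library was left out, 0 without either NC library; a lone library is then assumed to vary like the other group. Over all genes, the 2294 calls became 1358 at the fold change threshold, 4841 with the replicate block, 1045 with the GC content and length correction, and 0 to 2410 without 1 library (40 and 0 without NC replicates 1 and 2, 1446 without siAirn replicate 2); the cause was not tested. Members with no call changed sign in some settings. Myd88 went to 0.026 and 0.027 with limma (pseudocounts 1 and 0.1), to 0.095 with the GC content and length correction, and ran from -0.079 to 0.050 without 1 library (above 0 without siAirn replicate 1). Tlr3 went to -0.098 with that correction and ran from -0.055 (without NC replicate 2) to 0.16 without 1 library. Tlr4 went to -0.027 with the correction. Tlr7 went to -0.077 with it and ran from -0.29 (without NC replicate 1) to 0.45 without 1 library, and was below 0 without siAirn replicate 1 too (-0.019). The labels do not say that replicate numbers mark shared cultures; the deviations of same-numbered libraries correlated at 0.233 over 2 pairs. The block left the 2 member calls in place. The planned legacy form of the quasi-likelihood test is the default used here. DESeq2 gave no adjusted p for Tlr1 and Tlr7, and limma did not test them, as their mean FPKM was under 1. With the correction, 3 macrophage markers were called in place of 11, and no inhibitor or IL-1 receptor family gene was called. The block gave 11 calls each among the signalling genes and the co-receptors. The correction covered 12948 genes (95% of those tested). Depth limits Tlr1, Tlr7 and Tlr9.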
